A study of Mus musculus with 2 samples.

Results

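Mul1 and 7 genes whose proteins have been reported as its targets (Mfn1, Mfn2, Dnm1l, Akt1, Trp53, Ulk1 and Mavs) were examined in mouse oocytes with and without Mul1. Every gene probe that the array's own annotation names after one of these 8 genes was taken, which gave 16 probes, among 56600 probes of 37074 gene names that were usable on both arrays. The knockout oocytes were MUL1 -/- and the control oocytes MUL1 +/+, both unfertilised and from C57BL/6 mice, with 123 knockout and 213 wild-type oocytes. RNA of each pool went onto 1 array labelled with Cy3, so each genotype is a single pooled sample, and the labels give neither the animals' age nor their number nor the way the allele was made. With 1 array per genotype there is no replicate check and no test, and all differences below describe this pair of pools only. In pools of whole cells, fewer cells of a type and less RNA per cell cannot be told apart.

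Mul1, also known as MAPL or MULAN, sits in the outer mitochondrial membrane with its RING domain facing the cytosol, where it can attach ubiquitin or SUMO to other proteins. Ubiquitin attached by Mul1 has been reported to send mitofusins, AKT1, p53 and ULK1 to degradation, mainly in cell lines, while SUMO attached by it has been reported to hold the fission protein DRP1, the product of Dnm1l, on mitochondria and to restrain antiviral signalling around MAVS. These reported actions are on proteins, and the array measured their mRNAs. Oocytes carry many small round mitochondria, which they pass on to the embryo, and both fusion and fission genes are expressed in them.

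A probe on this array is a printed oligonucleotide of 60 bases, and where it lies decides which transcripts it reads. The ends of the Mul1 probes are shown because the check of the knockout rests on them, and capitals mark stop triplets (TAA, TAG or TGA in any sense frame). Each of these probes holds a stop triplet in all 3 sense frames, as do 20.3% of probes of this length, so no sense frame is open across either. The Mul1 probe for the RefSeq transcript NM_026689 lies at chr4:137995759-137995818 on the plus strand of mouse build mm9, and the probe for the Ensembl transcript ENSMUST00000105815 at chr4:137994263-137994322, with 1436 bases between them. Annotation of exons for that build was not used here.
Mul1 NM_026689, last 30 bases: gacTGAaTAAgaccagctcattgtccaggc
Mul1 ENSMUST00000105815, last 30 bases: cttctacaccagTGAagTAGtggtaTAGaa

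Among the target genes, 4 probes are shown whole, 3 of them (for Mfn1, Akt1 and Ulk1) because they read the same transcript as a brighter probe further 3′, and that of Trp53 because its difference was the highest. The upstream Akt1 probe spans 9267 bases of the genome (chr12:113900509-113909775, minus strand) and the upstream Ulk1 probe (chr5:111216232-111216623, minus strand) also covers more than its own length, so the aligned pieces of each are separated in the genome, as across an intron. The Mfn1 probe lies at chr3:32461937-32461996 and the Trp53 probe at chr11:69403134-69403193, both on the plus strand. The other Ulk1 probe (chr5:111213514-111213573, minus strand) holds the polyadenylation motif AATAAA, in capitals below, which 9.77% of all probes hold on the printed strand and 13.3% on either strand.
Mfn1 NM_024200 upstream: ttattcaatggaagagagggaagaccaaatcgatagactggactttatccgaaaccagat
Akt1 NM_009652 upstream: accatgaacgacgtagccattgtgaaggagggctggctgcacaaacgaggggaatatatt
Trp53 NM_011640: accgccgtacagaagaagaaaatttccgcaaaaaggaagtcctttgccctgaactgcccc
Ulk1 NM_009469 upstream: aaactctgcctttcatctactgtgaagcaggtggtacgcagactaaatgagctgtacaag
Ulk1 NM_009469 end, last 30 bases: tcatatcagtttaagaaAATAAAaattgga

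All 16 probes were well above background on both arrays, none carried an outlier or saturation mark, and none shared a run of 20 bases on either strand with another gene probe of the array. Each was printed at 1 spot. The error given with a signal is the scanner software's own estimate for that spot. For bright spots it is set by a fixed proportional term given in the file headers, so it covers the spot and not the pools. For the log2 difference of a probe it came to between 0.20 and 0.37. The median SD between spots of 296 other probes, each printed at 10 spots, was 0.045. A difference within 1 scanner error can therefore still exceed the spread between spots. Differences are log2 values, the knockout array's minus the wild-type array's, each taken relative to the array's own 75th percentile (a signal of 790 on the knockout array and 808 on the wild-type array, written to whole units). The lowest signal called well above background was 15.8 on the knockout array and 12.9 on the wild-type array.

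Mul1 was the member with a large difference. Its NM_026689 probe read 1074 ± 107.5 on the knockout array, against 3353 ± 335 on the wild-type array. The error ranges did not overlap, and the knockout signal was 0.328 times the wild-type one after scaling, a difference of -1.61 that was 7.89 times its scanner error. The knockout signal was nevertheless 67.9 times the lowest signal well above background on that array. Which RNA gave it was not tested, since the probe's sequence was compared only with other probes of the array. The ENSMUST00000105815 probe read 23.1 ± 4.19 on the knockout array and 19.3 ± 3.45 on the wild-type array, less than 2 times the lowest such signal of either array. Those ranges overlapped, and the difference of 0.29 was smaller than its error of 0.37. The labels do not say which part of Mul1 was removed, and a probe outside the removed part would not check the genotype.

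One of the 16 probes was therefore at least 2-fold lower on the knockout array and none was at least 2-fold higher, where 1.86% and 2.72% of the 35255 probes above background on both arrays were, or 4.58% in either direction. Of the 1000 probes nearest to the Mul1 NM_026689 probe in mean signal, 1.1% were at least 2-fold lower, and 1 was as low as Mul1. Among all probes above background on both arrays, 116 were as low or lower. The central 95% of the 1000 neighbours in signal ran from -0.58 to 0.56, and this was the only one of the 16 probes outside the range of its own neighbours in signal.

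**Figure D1:**
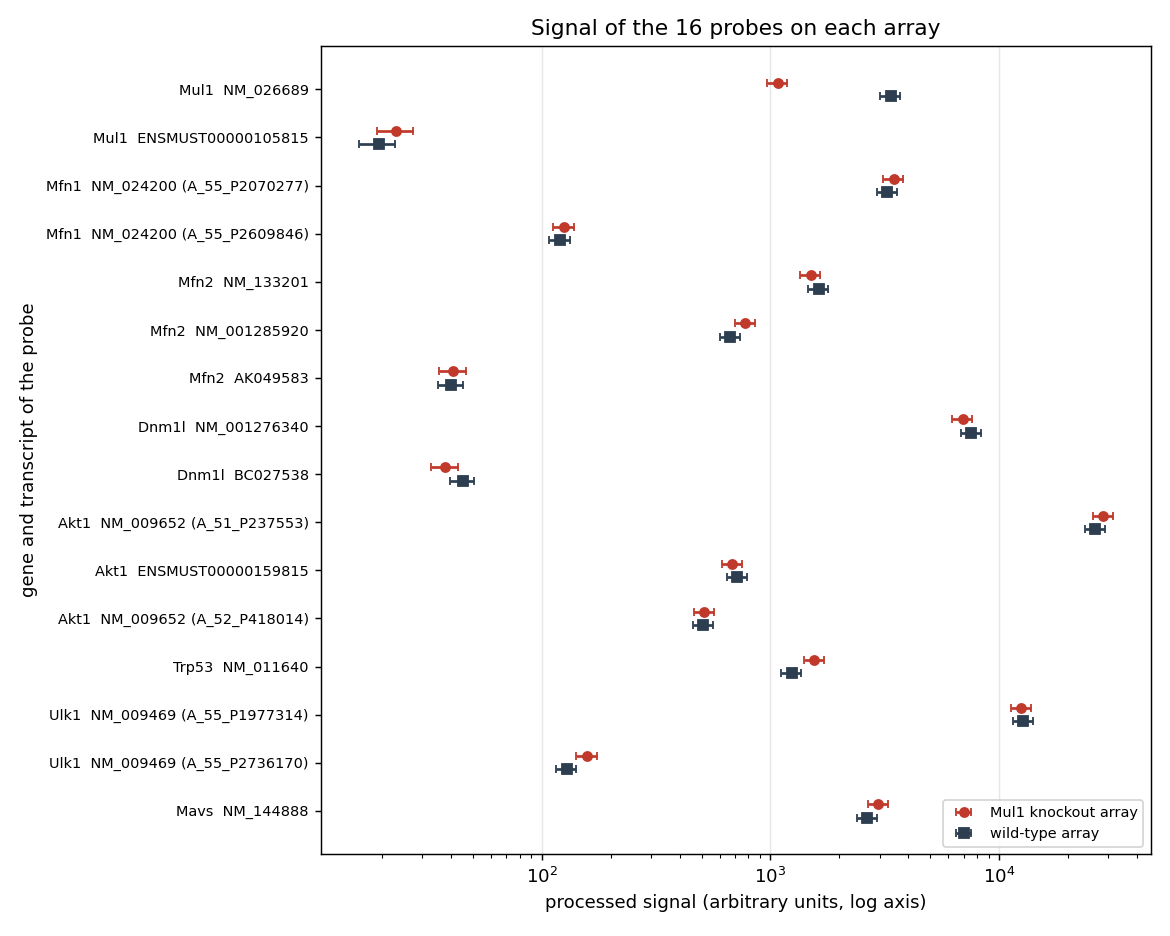
Processed signal (log axis) of each of the 16 probes on the Mul1 knockout array (circles) and the wild-type array (squares), with the scanner's error of each spot as bars. Pairs of symbols lie close together except for the Mul1 NM_026689 probe, at 1074 in the knockout and 3353 in the wild type.

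The mitofusin genes, which encode the GTPases that fuse outer mitochondrial membranes, differed little between the arrays. The Mfn1 probe further 3′ (chr3:32476215-32476274) read 3468 ± 347 on the knockout array and 3246 ± 325 on the wild-type array, and the upstream probe printed above 125 ± 12.9 on the knockout array and 119.8 ± 12.3 on the wild-type array. Both pairs of error ranges overlapped, and the differences were 0.13 and 0.09. Mfn2 had 3 probes. That for NM_133201 (chr4:147247695-147247748, minus strand) read 1499 ± 149.9 on the knockout array and 1626 ± 163 on the wild-type array, a difference of -0.09, and that for NM_001285920 (chr4:147248131-147248190) read 775 ± 77.6 on the knockout array and 668 ± 66.9 on the wild-type array, a difference of 0.25. The error ranges overlapped for both. These neighbouring probes thus lay on opposite sides of 0, the first within 1 scanner error of it and the second at 1.21 errors. The dim probe for the cDNA clone AK049583 (chr4:147255665-147255724) read 41.0 ± 5.54 on the knockout array and 40.0 ± 5.01 on the wild-type array, a difference of 0.07. The first Mfn2 value turned positive with spike-in controls as the scale, which put it at 0.11.

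Dnm1l encodes DRP1, the dynamin-related GTPase that constricts mitochondria and is needed in the growing mouse oocyte to keep organelles dispersed. Its probe for NM_001276340 (chr16:16312363-16312422, minus strand) read 6950.5 ± 695 on the knockout array and 7565 ± 756 on the wild-type array. The other probe, for BC027538 (chr16:16336911-16336970), read 37.8 ± 5.09 on the knockout array and 45.0 ± 5.28 on the wild-type array. The knockout values were the lower ones at both probes, with overlapping error ranges and differences of -0.09 and -0.22, each smaller than its error. Dnm1l was the gene among the 7 targets with all probes below 0, and on the spike-in scale the brighter probe read 0.11.

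Akt1, the serine-threonine kinase of insulin and growth factor signalling, was read at 3 sites. The most 3′ probe, for NM_009652 (chr12:113892079-113892138, minus strand), read 28594 ± 2859 on the knockout array and 26340.0 ± 2634 on the wild-type array, the upstream probe printed above 513 ± 51.4 on the knockout array and 508 ± 50.8 on the wild-type array, and the probe for ENSMUST00000159815 (chr12:113894094-113894153) 680.1 ± 68.1 on the knockout array and 717 ± 71.8 on the wild-type array. All 3 pairs of ranges overlapped. The differences were 0.15, 0.05 and -0.04, the last turning to 0.16 on the spike-in scale.

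Trp53, which encodes the p53 tumour suppressor, had the highest difference of the target genes. Its single probe, printed above, read 1552 ± 155 on the knockout array and 1238 ± 124 on the wild-type array. After scaling, the knockout value was 1.28-fold higher. The error ranges did not overlap, although the difference of 0.36 was 1.76 times the error of the difference itself, and 90.4% of the 1000 probes nearest in signal lay below it, so it was inside their central 95% (from -0.69 to 0.69). It ran from 0.33 to 0.56 over the other ways of processing the arrays.

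Ulk1, the kinase that starts autophagosome formation, had probes that gave different sizes. The probe with the AATAAA motif read 12516 ± 1252 on the knockout array and 12744 ± 1274 on the wild-type array, a difference of 0.01 after scaling. The upstream probe read 158 ± 16.2 on the knockout array and 128 ± 13.2 on the wild-type array, a difference of 0.33 or 1.57 times its error. The first pair of ranges overlapped. In the second pair the lower end of the knockout range and the upper end of the wild-type range were almost level, and 80.5% of probes of like signal lay below that difference. Mavs encodes the mitochondrial adaptor through which the RNA sensors RIG-I and MDA5 signal, and its probe for NM_144888 (chr2:131073675-131073734, plus strand) read 2961 ± 296 on the knockout array and 2648 ± 265 on the wild-type array. Those ranges overlapped, with a difference of 0.19 just under its error of 0.20.

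Over the 14 probes of the 7 target genes, 10 differences lay above 0 and 4 below, the median was 0.08 and the range ran from -0.22 to 0.36. Of the 4 below 0, 3 were above it on the spike-in scale, which shifts all probes up to a median of 0.22. Of the 10 above 0, the Mfn2 AK049583 probe was at -0.01 with quantile normalisation and in the authors' values, and the Ulk1 probe with the AATAAA motif was at -0.01 with normexp background correction. Across all probes above background on both arrays the median was 0.02, the middle 50% lay between -0.17 and 0.21, and 53.3% were above 0. None of the 14 was at least 2-fold apart, 11 were within 1 scanner error of 0, and the other 3, of Trp53, Ulk1 and Mfn2, were between 1 and 2 errors from it. That error is the software's estimate and is wider than the median spread between replicate spots given above. All 14 lay inside the central 95% of the 1000 probes nearest to each in signal. Averaged over its probes, a target gene differed by between -0.15 (Dnm1l) and 0.36 (Trp53), with Mavs at 0.19, Ulk1 at 0.17, Mfn1 at 0.11, Mfn2 at 0.08 and Akt1 at 0.05. Neighbours in this order, Dnm1l and Akt1 apart, differed by less than the smallest scanner error of 0.20. RNA of the unequal pools was amplified before labelling, and its spread between pools cannot be measured with 1 array each.

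**Figure D2:**
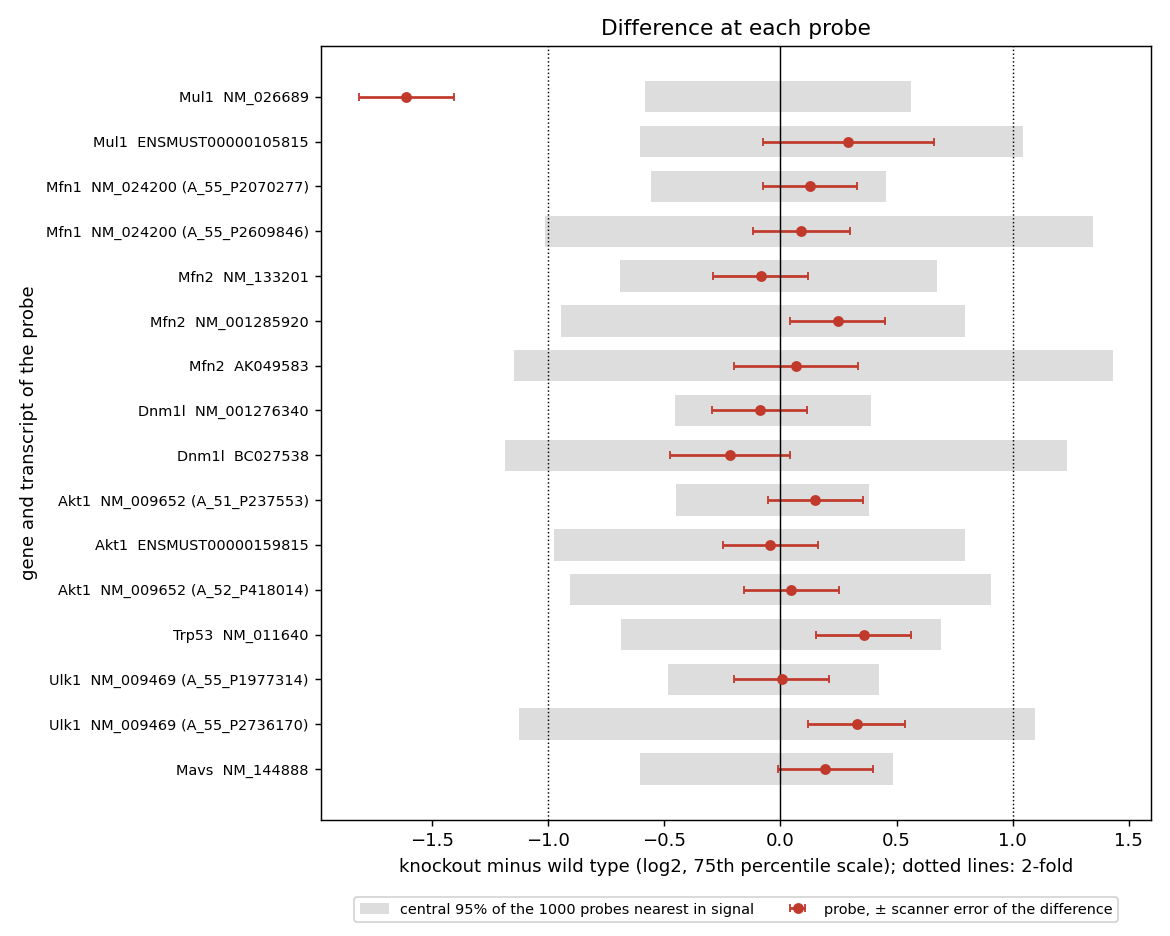
Difference between the knockout and the wild-type array at each probe (log2), with the scanner error of the difference as bars and the central 95% of the 1000 probes nearest in signal as grey bands. Dotted lines mark 2-fold. The Mul1 NM_026689 probe at -1.61 lies outside its band, and the 14 target gene probes lie inside theirs.

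**Figure D3:**
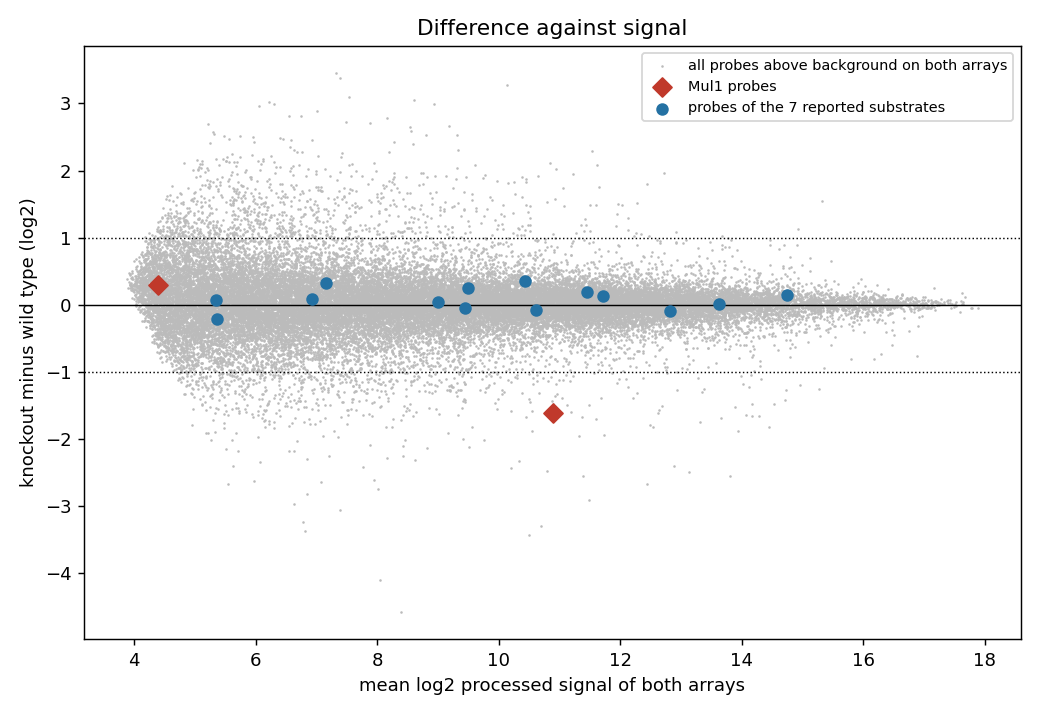
Difference between the arrays (log2) against the mean log2 signal for all 35255 probes above background on both arrays (grey), the Mul1 probes (diamonds) and the 14 probes of the 7 target genes (circles). The spread of grey points narrows toward bright probes, and the target gene probes stay between -0.22 and 0.36 over the whole range of signal.

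Genes that work with these proteins were mostly less than 2-fold apart. Of 96 genes in 8 related lists, 95 were above background on both arrays, and Ifnb1, the interferon that MAVS signalling induces, was not well above background on either. Of the 95, 47 lay above 0 and 48 below, with a median of -0.01, while over all 22921 genes the median was 0.03 and 54.8% were above 0. At least 2-fold lower was 1 gene and at least 2-fold higher none, where 1.37% and 2.92% of all genes were. The single gene was Hspa5, the ER chaperone BiP, which has itself been reported as a target of Mul1. Its 3 probes ran from -1.48 to -0.81, and its brightest probe, the one at -0.81, read 55205 on the knockout array and 99062 on the wild-type array. That list of 4 further reported targets also held Tmem173, the gene of the DNA-sensing adaptor STING, at 0.91 with signals of 686 on the knockout array and 374 on the wild-type array, Ddx58 (RIG-I) at 0.18 and Ubxn7 at 0.00.

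The 16 genes of E2 enzymes and SUMO machinery had a median of 0.03 and ran from -0.21 for the SUMO protease gene Senp2 to 0.21 for Sae1, a subunit of the SUMO-activating enzyme, with 9 above 0. The list of 11 other ubiquitin ligases, deubiquitinases and Pink1, acting at mitochondria, had a median of -0.07, with 8 below 0, the deubiquitinase gene Usp15 lowest at -0.70 over probes from -1.63 to 0.11, and Rnf5 highest at 0.33. March5, the other well known ligase of the outer membrane that acts on mitofusins and DRP1, differed by -0.04, and Park2, the gene of Parkin, by 0.30 over probes that disagreed, at -0.19 and 0.80. The median of this list was positive, at 0.12, on the spike-in scale.

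Partners of the mitofusins and of DRP1 had a median of 0.03 over 13 genes, with 9 above 0. The inner membrane fusion gene Opa1 read 0.03, the genes of DRP1 receptors or adaptors Mff, Mief2, Mief1 and Fis1 read 0.13, 0.05, 0.02 and 0.23, and the extremes were Dnm2 at 0.26 and the formin gene Inf2 at -0.26. In the AKT pathway list 6 of 16 genes lay above 0 and the median was -0.08 (0.12 on the spike-in scale). The PI3-kinase regulatory subunit gene Pik3r1 was highest at 0.56. Lowest was the mTORC2 subunit gene Rictor, at -0.65 over 6 probes that ran from -1.19 to -0.10. The paralogue Akt2 read 0.06. Among 11 p53 regulators and targets 4 were above 0 and the median was -0.08 (0.12 on the spike-in scale). Mdm2, the ubiquitin ligase that degrades p53, was lowest at -0.83 over probes of -1.29 and -0.37, Trp63 was highest at 0.21, and the p53 target Cdkn1a read 0.12.

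Genes of the ULK1 complex and its upstream kinase had a median of -0.05 over 10 genes (0.15 on the spike-in scale), with 4 above 0. Atg13, a subunit of that complex, was lowest at -0.60, but its probes disagreed, at -1.23 and 0.02, and Ambra1 was highest at 0.32 over probes of -0.14 and 0.78. MAVS signalling genes had a median of 0.03 over 14 measured genes, with 9 above 0. The RIG-I family gene Dhx58 was highest at 0.96, with signals of 215 on the knockout array and 113 on the wild-type array, followed by the interferon regulatory factor gene Irf7 at 0.51, and the ligase gene Traf6 was lowest at -0.49 over probes from -1.68 to 0.00. Scaling on spike-in controls moved the median of all genes to 0.23, and on that scale Tmem173 and Dhx58 were at least 2-fold higher, at 1.11 and 1.16.

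**Figure D4:**
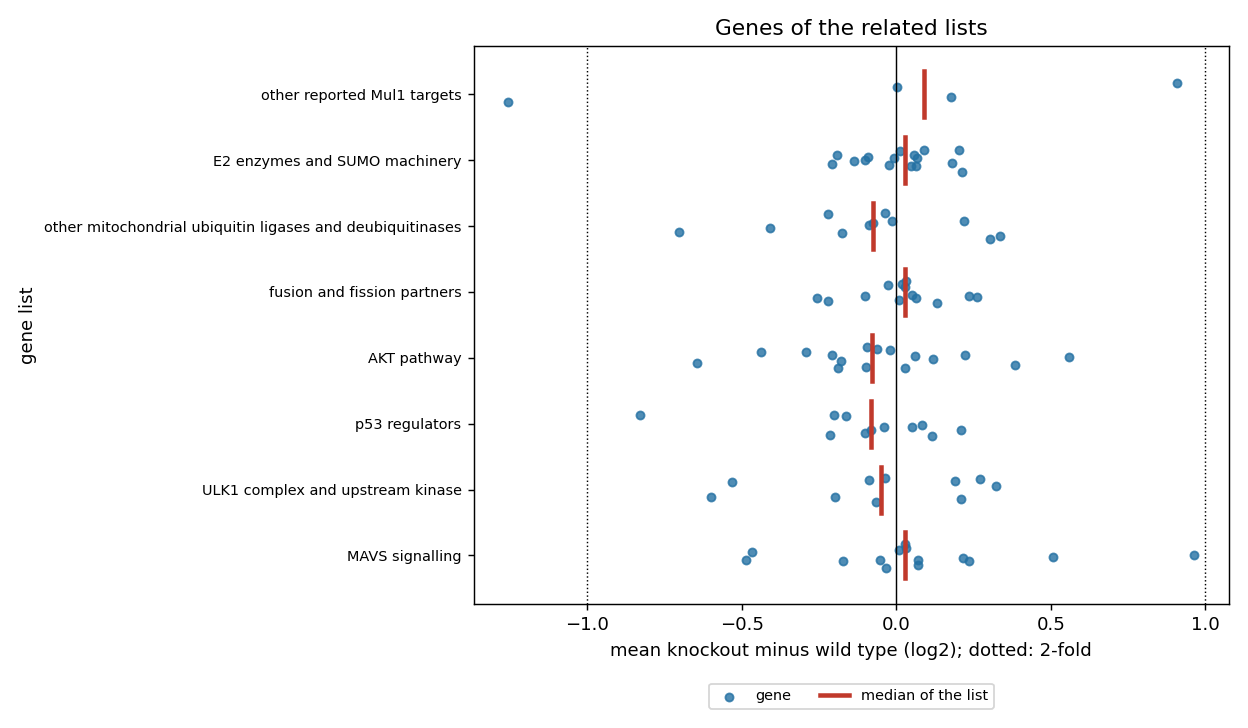
Difference between the arrays (log2), averaged over the probes of a gene, for the 95 measured genes of 8 lists related to Mul1 and its targets, each point 1 gene and each red line the median of a list. Hspa5 at -1.26 is beyond the dotted 2-fold line, and all list medians lie between -0.08 and 0.09.

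Markers of other cell types were detected in both pools. All 12 oocyte markers, such as the zona pellucida genes, were well above background on both arrays. Their median difference was 0.07, with 6 above 0 and 6 below and a range from -0.21 to 0.94. Their signals summed to 121031 on the knockout array and 130705 on the wild-type array. Gdf9 alone gave 61515 on the knockout array and 68126 on the wild-type array. The other 11 summed to 59516 on the knockout array and 62579 on the wild-type array. All 13 myeloid markers lay above 0 (0.60 to 3.27, median 1.82) and 11 were at least 2-fold higher, beside 2.92% of all genes. Their signals summed to 87235 on the knockout array and 34797 on the wild-type array. Lyz2 alone gave 47528 on the knockout array and 22080 on the wild-type array. The other 12 summed to 39707 on the knockout array and 12717 on the wild-type array. Of 7 red cell markers, 6 were measured (-1.66 to -0.10, median -1.31) and 5 were at least 2-fold lower, beside 1.37% of all genes. The summed signals were 27668 on the knockout array and 87051 on the wild-type array. Of these, Hba-a1 gave 14798 on the knockout array and 47174 on the wild-type array. The other 5 summed to 12870 on the knockout array and 39877 on the wild-type array. The 9 theca, stroma and oviduct markers had a median of 0.61, a range from -0.94 to 1.54, 3 at least 2-fold higher and summed signals of 72048 on the knockout array and 26678 on the wild-type array. The oviduct gene Ovgp1 carried most of that sum, with 69104 on the knockout array and 24266 on the wild-type array, and the other 8 summed to 2944 on the knockout array and 2412 on the wild-type array. The 13 cumulus and granulosa markers had a median of 0.14 and lay on both sides of 0, from -0.96 to 1.16, with 1 at least 2-fold higher and none at least 2-fold lower. They had summed signals of 382434 on the knockout array and 367229.7 on the wild-type array. Hsd3b1 gave 192728 on the knockout array and 182569 on the wild-type array, and the other 12 summed to 189706 on the knockout array and 184661 on the wild-type array. The immune genes Tmem173, Dhx58 and Irf7 were higher on the knockout array, as the myeloid markers were. They are high genes of their lists, and the MAVS signalling list with Dhx58 and Irf7 had 9 genes above 0, 5 below and a median of 0.03. The part of these other cells in any difference given here was not tested.

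The genes beside Mul1 on chromosome 4 are described because a knockout allele sits among them. Within 200 kb of the Mul1 NM_026689 probe the array had 16 probes of 12 other genes or loci, and 12 probes of 8 genes were above background on both arrays. Their median difference was 0.10 and 1 of the 12 was at least 2-fold lower, beside 1.86% of all probes. That was a Kif17 probe for ENSMUST00000105820, 153 kb away, which read 41.0 on the knockout array and 94.9 on the wild-type array (-1.18), whereas the Kif17 probes for NM_010623 read 0.23 and 0.10. A Sh2d5 probe read -0.73 and the other -0.01. Pink1, the mitophagy kinase gene, lies 121 to 126 kb from Mul1 and differed by 0.35 and 0.09 at its probes, and Camk2n1, the nearest measured gene at 17.6 kb, by 0.22. The closest probe of all, 6.70 kb beyond Mul1, is for the cDNA clone AK046999. It read 12.6 on the knockout array, not well above background, and 30.9 on the wild-type array. With the knockout value put at that array's lowest signal well above background, it would be 1.91-fold lower after scaling. That is no firm minimum, since both signals were dim and the scanner error of the log2 difference was 0.50.

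**Figure D5:**
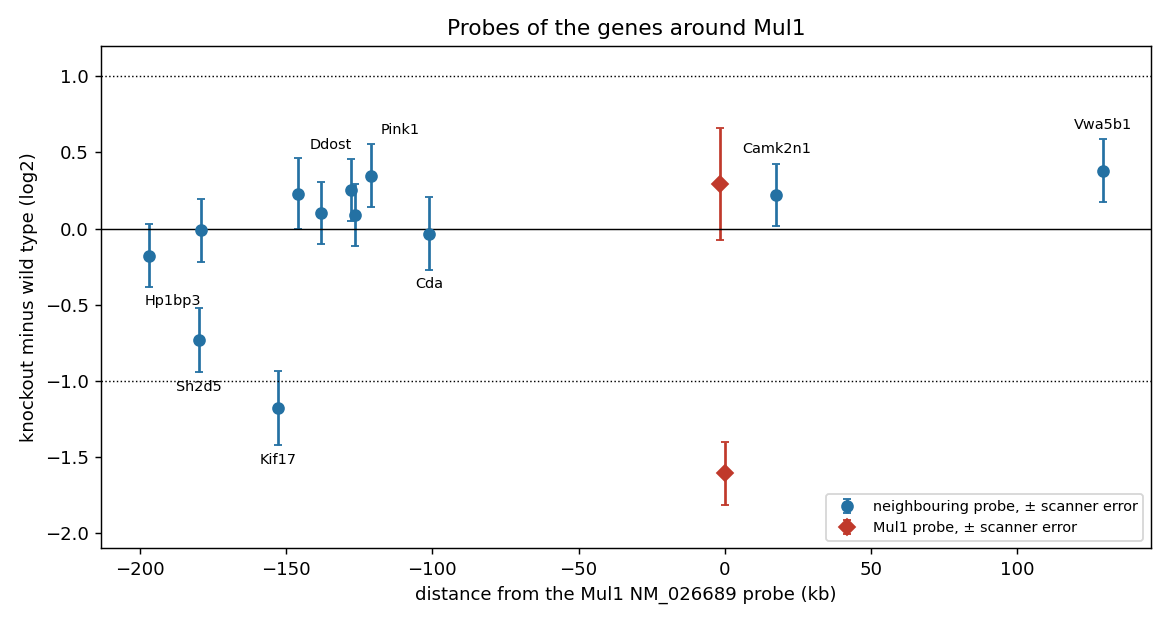
Difference between the arrays (log2) against distance from the Mul1 NM_026689 probe (kb) for the 12 neighbouring probes above background on both arrays (circles) and the Mul1 probes (diamonds), with scanner errors of the difference as bars and dotted lines at 2-fold. Mul1 NM_026689 at -1.61 is the lowest point, and 1 Kif17 probe is also beyond 2-fold.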

How the data were processed

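Per the file headers, spot intensity was extracted with Agilent Feature Extraction 10.7.1.1 (9.5.1.1 in the submitters' processing notes) on design 074809 with probe positions on mm9, with spatial and multiplicative detrending within each array and no scaling between arrays. The deposited series-wide table of intensity is linear and quantile normalised, its sorted columns being the same within 0.0243% (median 57.95 in both), and followed the scanner differences with r = 0.997 across probes. Here log2 of the processed intensity was taken, outlier spots (84 knockout, 88 wild type) and controls were left out, values of replicate spots were averaged, and the 75th percentile of an array was subtracted from its values. Genes are the array's own names, averaged over probes above background on both arrays. Named are all members, the extremes of each related list and genes of those lists at least 2-fold apart, while marker lists are given by counts, medians and ranges. A few others of those lists were chosen after values were seen (such as Opa1, March5, Park2, Akt2, Cdkn1a and Irf7). So were the markers Gdf9, Ovgp1, Lyz2, Hba-a1 and Hsd3b1, each the brightest of its list, the neighbours of Mul1 and the probes printed. The members and lists were chosen with earlier results of these data known. The 2-fold limit was tried on simulated probes with known differences put in, which checks the code and not the counts given here. Python 3.11.15 and limma 3.58.1 were used. Alternatives were other scalings (median, quantile, loess, 7 spike-in probes), normexp, the authors' values, no outlier flags, other filters on dim probes and the brightest probe.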

Additional observations from a re-analysis of the deposited data

How the results depend on the processing

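Mul1 at its NM_026689 probe ran from -1.62 to -1.41 over 9 other ways of processing the arrays and was at least 2-fold lower in all 9, and the count of member probes at least 2-fold apart was 1 in each. Averaged over both probes Mul1 differed by -0.66, and by -1.61 with the brightest probe or with a stricter limit for dim probes (at least 4 times the lowest accepted signal of an array), which leave out the dim probe. With the brightest probe 0 genes of the related lists were at least 2-fold lower, since the brightest Hspa5 probe read -0.81, and on the spike-in scale 2 were at least 2-fold higher. The spike-in scale shifts all values up, and on it the Mfn2 NM_133201, Dnm1l NM_001276340 and Akt1 ENSMUST00000159815 probes were above 0. The Mfn2 AK049583 probe turned to -0.01 with quantile normalisation and in the authors' values, the Ulk1 probe with the AATAAA motif to -0.01 with normexp, and the mean of Mfn2 to -0.09 with its brightest probe. The count of all genes at least 2-fold apart was 670 higher and 313 lower, against 212 and 116 with normexp, 1030 and 175 on the spike-in scale (85.5% higher, against 68.2%), 339 and 194 with the stricter filter and 2773 and 1330 with no filter. No paired analysis was possible because each genotype had 1 array. Signals near background limit the Mul1 ENSMUST00000105815, Mfn2 AK049583 and Dnm1l BC027538 probes.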

Other observations

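Several genes of the related lists had probes that disagreed, and the low ones were often designed on transcripts other than curated RefSeq mRNAs. Of the 220 measured probes of these lists, 12 (5.45%) were at least 2-fold lower on the knockout array and 0 at least 2-fold higher. Of all probes above background on both arrays, 1.86% were at least 2-fold lower and 2.72% at least 2-fold higher. Among the 41 probes not designed on an NM transcript 8 were at least 2-fold lower (19.5%), and among the 179 designed on one 4 were (2.23%). Over all probes above background on both arrays the shares were 3.70% of 12795 and 0.801% of 22460. Usp15 had 4 of the 12, all on cDNA clones, and Hspa5 had 2, both on NM_022310. The probe of the Tank gene (the TRAF-binding adaptor of MAVS signalling) for ENSMUST00000139533 read 37.6 on the knockout array and 136 on the wild-type array, a difference of -1.83, the lowest of these lists, while the highest Tank probe read 0.04. Probes of 1 gene are not replicates, these groupings were made after the values were seen, and what the sites share was not tested.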
